A study of Mus musculus with 33 samples.

Results

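Cd3g and Lat encode parts of the antigen receptor machinery of T cells, and they were followed here in cultured mouse spleen cells exposed to immunostimulatory DNA. Cd3g encodes CD3 gamma, a signalling chain of the receptor complex, whereas Lat encodes a membrane adaptor just downstream of the receptor and is not itself a receptor chain. The members were the probes whose gene symbol is Cd3g or Lat in the platform annotation, which gave 2 probes, 1 per gene, of 16720 in the table and 2 genes of the 9672 with values. Both genes were selected on their measured values in this series, the log2 ratios over the 3 treatments and 3 times, so their own differences between groups are given as descriptions and carry no test.

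Spleen cells came from female BALB/c mice, 2 months old, and were cultured at 37 C as a single-cell suspension. A CpG oligodeoxynucleotide (ODN), short DNA that carries unmethylated CpG motifs, was given as an equimolar mix of ODN 1555 and 1466 at 1 uM. The comparison cultures received a control ODN, an equimolar mix of 1612 and 1471 at 1 uM, or only medium, and cells were harvested for RNA at 2, 4 or 8 h. Each of the 9 groups holds 4 arrays at 2 h and 4 h and 3 at 8 h, 33 in all, with the spleen cell cDNA labelled with Cy5 and Universal Mouse Reference RNA with Cy3. The cultures hold all cell types of the spleen, and the labels do not say how many mice gave the cells or whether they were pooled. No label ties an array to an animal or a culture, though the design text speaks of independent experiments, so the p-values below measure only the spread between these arrays.

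The antigen receptor of T cells binds peptide on MHC through its variable chains, while the CD3 gamma, delta, epsilon and zeta chains carry the signal into the cell. When the receptor is engaged, the kinase Lck phosphorylates the CD3 chains, and ZAP-70 docks there and phosphorylates LAT. LAT then gathers phospholipase C gamma, Grb2 and other adaptors into a signalling complex that drives the calcium, Ras and protein kinase C branches. CpG DNA is sensed by Toll-like receptor 9, which in mouse spleen is found mainly in B cells, dendritic cells and macrophages rather than in T cells.

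In the GRCm38.p6 assembly, Cd3g lies on the minus strand of chromosome 9, from 44969572 to 44980431, a span of 10860 bases. Its nearest protein-coding neighbours are Cd3d, 1338 bases away, Ube4a at 3957 bases and Cd3e at 18304 bases. Of these, Cd3d and Cd3e are genes of other CD3 chains. Lat lies on the minus strand of chromosome 7, from 126363827 to 126369705, a span of 5879 bases, with Spns1 355 bases and Nfatc2ip 13148 bases away. The sequences upstream of both genes are shown so that the promoters of 2 genes that were low in the same group can be compared. They are taken from RefSeq, read 5' to 3' on the gene's strand, and capitals mark matches to the E-box letters CANNTG, the kind of element bound by basic helix-loop-helix factors. The Cd3g stretch is the 250 bases before its start, chr9:44980432-44980681. The Lat stretch is chr7:126369706-126369818, 113 bases that lie outside the annotated gene, since the bases nearer to its transcript start fall inside other models of the gene.
Cd3g: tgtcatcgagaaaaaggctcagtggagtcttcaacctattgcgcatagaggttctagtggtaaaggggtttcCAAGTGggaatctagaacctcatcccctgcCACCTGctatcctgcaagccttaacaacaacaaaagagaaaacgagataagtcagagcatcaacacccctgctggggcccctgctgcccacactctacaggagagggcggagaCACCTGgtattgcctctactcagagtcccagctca
Lat: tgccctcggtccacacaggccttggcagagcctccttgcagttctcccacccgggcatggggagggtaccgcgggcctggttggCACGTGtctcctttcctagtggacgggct
The Cd3g stretch holds 3 E-box matches, the nearest 30 bases before the start, and a GC content of 51.6%. The Lat stretch holds 1, within a GC content of 66.4%, and the whole 250-base window before the Lat start holds 2. Of 32851 mouse promoter windows of 250 bases, 66.2% hold at least 1 such match. Searched on both strands, the GATA core GATA occurred 2 times in the Cd3g window and not in the Lat window, and 53.6% of windows hold it. The ETS core GGAA occurred 2 times for Cd3g and 4 times for Lat, and 93.4% of windows hold it. The letters TGTGGT (a RUNX element), TGANTCA (AP-1) and TTCNNNGAA (a STAT element) were in neither window, and 14%, 6.75% and 7.02% of windows hold them. These are matches of letters, and no binding was measured.

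Every value below is a log2 ratio of spleen cells over reference after subtraction of the array median, so 1 unit is a 2-fold ratio. The log base is not stated in the sources used here and was taken as 2 from the range of the values, and every fold given rests on that. The reference RNA pools several tissues and cell types, T lymphocytes among them. Cd3g and Lat were each measured on 32 of 33 arrays. The missing values are CpG ODN 8 h replicate 1 for Cd3g, which leaves that group with 2 arrays, and medium 2 h replicate 2 for Lat. Between 7908 and 11129 probes had a value on an array, the array medians lay between -0.085 and 0.024, and the number of arrays limits the precision.

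The Cd3g ratio was above 0 on each of its 32 measured arrays, and its group mean was lowest in the cells exposed to CpG ODN for 8 h. At 8 h the CpG ODN arrays read 0.60 and 1.36 (replicates 2 and 3). The control ODN arrays read 2.23, 2.64 and 2.35, and the medium arrays 1.93, 3.24 and 2.98. Both CpG ODN arrays therefore lie below all 6 control arrays of that time. The group means were 0.98 ± 0.54 (SD, n = 2) with CpG ODN, 2.41 ± 0.21 (SD, n = 3) with control ODN and 2.72 ± 0.69 (SD, n = 3) in medium. The CpG ODN mean was 1.43 ± 0.40 (SE) log2 units, or 2.69-fold, lower than with control ODN, and 3.34-fold lower than in medium. In the same 8 h comparisons, every measured CpG ODN array lay below every control ODN array for 19.3% of the 9494 genes tested, and below every medium array for 17.7% of 9478, so such a separation is common here.

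At 2 h the CpG ODN arrays read 1.87, 1.39, 1.34 and 2.16 for Cd3g, control ODN 2.21, 1.44, 2.50 and 2.69, and medium 2.21, 1.87, 2.21 and 2.64. The groups overlap, though the CpG ODN mean is the lowest of the 3. The difference of CpG ODN was -0.52 ± 0.31 (SE, n = 4 and 4) from control ODN and -0.54 ± 0.31 (SE, n = 4 and 4) from medium. Between arrays of the same repeat number at 2 h, the differences from control ODN were -0.34, -0.043, -1.16 and -0.53. The repeat numbers are not known to mark a shared experiment. At 4 h the readings were 1.88, 1.39, 2.60 and 2.32 with CpG ODN, 2.23, 1.73, 1.32 and 2.39 with control ODN, and 2.35, 1.73, 1.88 and 2.48 in medium. Here the 3 groups overlap over almost their full ranges, and the difference from control ODN was 0.13 ± 0.31 (SE, n = 4 and 4). Between arrays of the same repeat number at 4 h, the differences from control ODN were -0.36, -0.35, 1.27 and -0.068, of both signs. Along the CpG ODN series, the mean was 1.69 at 2 h, 2.05 at 4 h and 0.98 at 8 h, with 8 h minus 4 h at -1.07 ± 0.38 (SE). Over that interval the differences were 0.49 ± 0.34 (SE) in control ODN and 0.61 ± 0.34 (SE) in medium, both positive and below 2 SE. Ordered by mean, the 9 Cd3g groups run from medium at 8 h (2.72) down to CpG ODN at 8 h. Only the last step, 0.71 from CpG ODN at 2 h to CpG ODN at 8 h, is larger than the larger SD of the groups on either side of it (0.54), and the other 7 neighbouring steps are not.

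For Lat the readings at 8 h were 0.050, -0.39 and -0.0044 with CpG ODN, against 1.22, 0.69 and 1.35 with control ODN. Medium gave 0.77, -0.035 and 0.92. All 3 CpG ODN arrays lie below all 3 control ODN arrays, a separation seen for 19.3% of the 9494 genes tested. Medium replicate 2 falls inside the CpG ODN range. The group means were -0.11 ± 0.24 (SD, n = 3) with CpG ODN, 1.08 ± 0.35 (SD, n = 3) with control ODN and 0.55 ± 0.51 (SD, n = 3) in medium. The CpG ODN mean was 1.20 ± 0.27 (SE) log2 units, or 2.29-fold, lower than with control ODN, and 0.66 ± 0.27 (SE) units, or 1.59-fold, lower than in medium. The control cultures stood apart from each other too, with control ODN above medium by 0.53 ± 0.27 (SE), so the size of the Lat difference depends on which control is used.

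At 2 h the Lat readings were 0.65, 0.81, 0.54 and 0.40 with CpG ODN, 0.64, 0.66, 0.37 and 1.25 with control ODN, and 0.19, 0.51 and 1.21 in medium. At 4 h they were 0.46, 0.97, 0.071 and 0.68 with CpG ODN, 0.73, 0.71, 0.58 and 0.39 with control ODN, and 0.59, 0.81, 0.52 and 0.40 in medium. The groups overlap at both times, and CpG ODN minus control ODN was -0.13 ± 0.23 (SE) at 2 h and -0.060 ± 0.23 (SE) at 4 h. The Lat mean with CpG ODN was 0.60 at 2 h, 0.55 at 4 h and -0.11 at 8 h. From 4 h to 8 h it differed by -0.66 ± 0.25 (SE) with CpG ODN, by 0.48 ± 0.25 (SE) with control ODN and by -0.029 ± 0.25 (SE) in medium. In the order of the 9 means, from control ODN at 8 h (1.08) down to CpG ODN at 8 h, again only the lowest group is set off, by a step of 0.66 from CpG ODN at 4 h against a larger SD of 0.38.

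**Figure D1:**
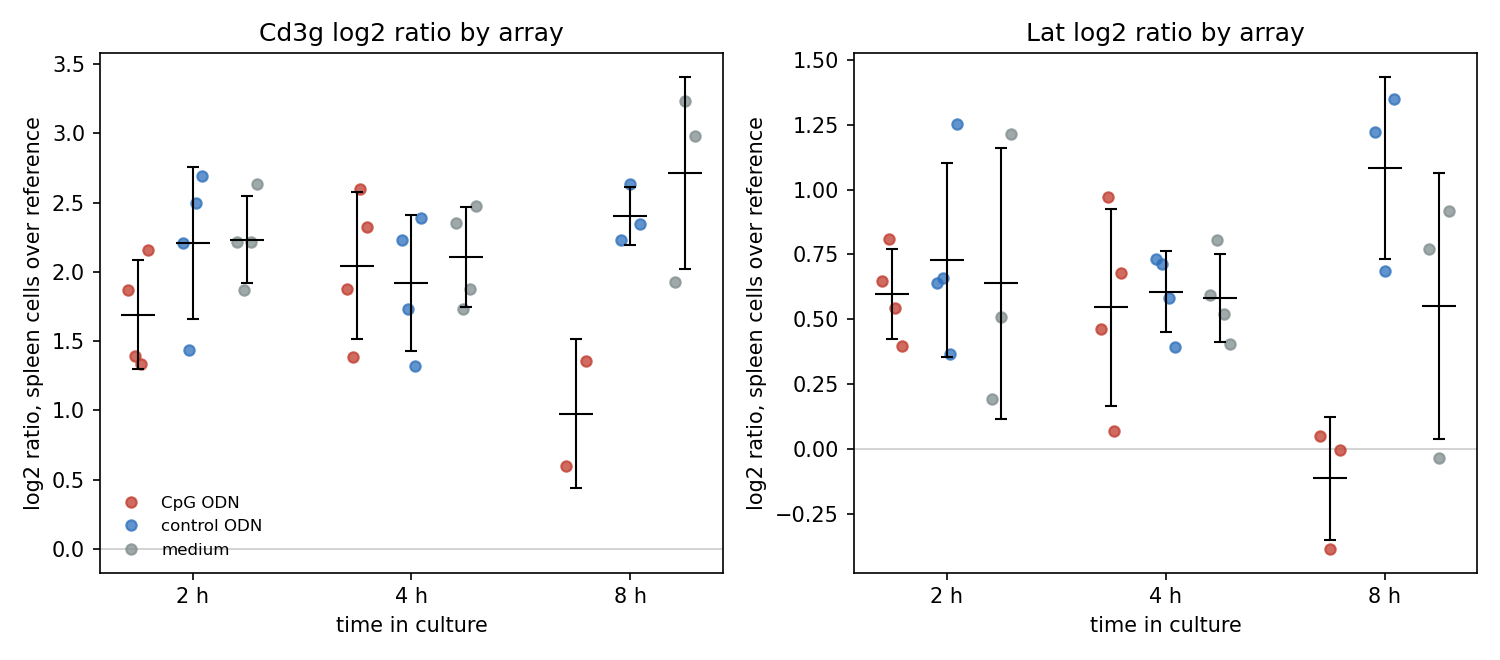
Log2 ratio of Cd3g (left) and Lat (right) on each array, by time in culture (2, 4 and 8 h) and treatment (colour), with horizontal dashes at the group means and bars of 1 SD. The CpG ODN arrays at 8 h have the lowest group mean in both panels, and range from 0.60 to 1.36 for Cd3g and from -0.39 to 0.050 for Lat. A CpG ODN array at 2 h (1.34) and a control ODN array at 4 h (1.32) reach into the Cd3g range. For Lat, 1 medium array at 8 h (-0.035) reaches into the range.

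The change of the CpG ODN effect with time, taken as the 8 h difference from control ODN minus the 4 h difference, was -1.55 ± 0.51 (SE) for Cd3g and -1.14 ± 0.36 (SE) for Lat. Among all genes tested at 8 h against control ODN, 50 (0.527%) had a lower value than Cd3g and 117 (1.23%) a lower value than Lat. Against medium the places were further apart, with 23 genes (0.243%) below Cd3g and 1175 (12.4%) below Lat. These places only describe the members and are no test, since both were selected on these same values. The Cd3g places rest on 2 CpG ODN arrays. The median over all genes was -0.12 against control ODN and -0.13 against medium, and both members lie below these medians, Lat less far against medium. Between arrays of the same repeat number at 8 h, CpG ODN minus control ODN was -2.04 and -0.99 for Cd3g and -1.17, -1.07 and -1.35 for Lat, although the numbers are not known to mark a shared experiment.

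The other chains of the receptor complex were also lower with CpG ODN at 8 h for the most part, but only Cd3e, the gene of CD3 epsilon, passed the test against control ODN (limma with Benjamini-Hochberg adjustment over all genes tested). Cd3e fell by 1.01 ± 0.28 (SE, n = 3 and 3, adjusted p = 0.017) on the log2 scale, from 1.85 ± 0.28 (SD) in control ODN to 0.84 ± 0.28 (SD), with readings of 0.85, 0.56 and 1.12 against 1.83, 1.58 and 2.14. Its medium arrays read 1.19, 0.37 and 2.05 and spanned the CpG ODN range, and that difference was -0.36 ± 0.28 (SE, adjusted p = 0.464, limma). The Cd3e call against control ODN was lost without control ODN replicate 3 or CpG ODN replicate 2, where the difference was -0.86 in both cases.

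Cd3d, which encodes CD3 delta and is the nearest neighbour of Cd3g, read 3.72, 3.29 and 4.48 with CpG ODN at 8 h and 5.03, 4.95 and 5.31 with control ODN. The groups do not overlap, a separation seen for 19.3% of the 9494 genes tested. Yet the spread of Cd3d over the whole series is wide and the difference of -1.27 ± 0.64 (SE) did not pass (adjusted p = 0.243, limma). Fitted on the compared groups only, it did pass. In medium at 2 h, Cd3d read 0.94 on replicate 4, against 4.31 and 3.92 on replicates 1 and 3. Cd247, which encodes the zeta chain, differed by -0.51 ± 0.26 (SE, adjusted p = 0.260, limma), and the T cell receptor alpha gene Tcra by 0.017 ± 0.31 (SE) over 2 arrays a group. The coreceptor genes Cd8a and Cd8b1, whose products bind MHC class I, differed by -0.63 ± 0.24 (SE, adjusted p = 0.102, limma) and -0.39 ± 0.47 (SE), and neither passed. At 2 h and 4 h the differences of Cd3e from control ODN were -0.25 ± 0.24 (SE) and 0.034 ± 0.24 (SE).

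Of the TCR signalling list, 71 genes other than Cd3g and Lat were tested against control ODN at 8 h, of which 9 fell and 4 rose. Over all genes in this comparison, 5.45% fell and 4.55% rose. The median difference of the list was -0.29, against -0.12 over all genes, and 46 of its 71 genes (64.8%) were lower, beside 61.3% of all genes. At an unadjusted p under 0.05 the count was 19 (26.8%), beside 22.1% of all genes. The shares of lower genes and of genes at an unadjusted p under 0.05 are thus near the background. The 9 of 71 that fell are a larger share than the 5.45% of all genes, but that count depends on the processing, as given below. Against medium, 70 were tested, 6 fell and 4 rose, beside 6.11% and 5.66% of all genes, and the list's median of -0.13 equalled that of all genes to 2 decimals. The 10 calls against medium became 6 with quantile normalization and 4 when the fit held no other groups, and 2 genes fell under each of these settings. With quantile normalization between arrays the 13 calls against control ODN became 6, of which 3 fell, and without CpG ODN replicate 2 they also became 6, of which 3 fell.

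Among the enzymes that act next to the receptor, the phosphatase gene Ptpn22, which restrains Src-family kinases and ZAP-70, fell by 1.17 ± 0.30 (SE, adjusted p = 0.011, limma) against control ODN and by 1.34 ± 0.30 (SE, adjusted p = 0.0028, limma) against medium. Tec, a kinase that acts on phospholipase C gamma, fell by 0.90 ± 0.29 (SE, adjusted p = 0.044, limma). The Ptpn22 call against control ODN was lost with quantile normalization and without CpG ODN replicate 2, and the Tec call was lost in 8 of the alternatives. The 6 others did not pass. Zap70, the kinase that phosphorylates LAT, differed by 0.29 ± 0.38 (SE), Fyn by -0.21 ± 0.26 (SE) and Ptprc, which encodes CD45, by -0.34 ± 0.27 (SE). The B cell lineage also expresses several genes of this group, and which cells gave the signal was not measured.

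Of the 19 other adaptors tested, 1 fell and 2 rose against control ODN. Fyb, whose product links the receptor to integrins, fell by 0.82 ± 0.24 (SE, adjusted p = 0.024, limma). Nck1, an adaptor to the actin cytoskeleton, rose by 2.40 ± 0.42 (SE, adjusted p = 3.34e-04, limma), and Dok2, an inhibitory docking protein, rose by 1.20 ± 0.22 (SE, adjusted p = 2.64e-04, limma). Lcp2, which encodes SLP-76, the partner of LAT, differed by 0.15 ± 0.40 (SE), and Grap2, the adaptor that joins them, by -0.44 ± 0.40 (SE). Grb2, which binds LAT directly, differed by 0.074 ± 0.27 (SE). None of these 3 partners of LAT passed the test.

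Further downstream, 3 of 17 genes of the calcium, Ras and PKC branches fell and none of the 17 rose against control ODN, with 6 (35.3%) at an unadjusted p under 0.05 (limma), beside 22.1% of all genes. Inpp5d, the lipid phosphatase SHIP1, fell by 1.57 ± 0.29 (SE, adjusted p = 4.33e-04, limma). Dgka, a diacylglycerol kinase that dampens receptor signals, fell by 0.98 ± 0.24 (SE, adjusted p = 0.0066, limma) and kept its call in each alternative run against control ODN. Pik3r1, a regulatory subunit of PI3 kinase, fell by 0.83 ± 0.23 (SE, adjusted p = 0.020, limma). Of 8 transcription factors, Jun rose by 2.31 ± 0.24 (SE, adjusted p = 4.57e-08, limma) and Egr1 fell by 0.82 ± 0.27 (SE, adjusted p = 0.048, limma), though both respond to many signals besides the T cell receptor. Of 13 costimulatory and inhibitory receptors, Cd5, a surface receptor that damps antigen receptor signals, fell by 0.90 ± 0.23 (SE, adjusted p = 0.0093, limma) and Tnfrsf9, which encodes 4-1BB, rose by 0.94 ± 0.30 (SE, adjusted p = 0.043, limma). The Cd5 call was lost with quantile normalization and with the compared groups only. Against medium at 8 h, 0 of the 12 costimulatory and inhibitory receptors tested rose and 0 fell, with Cd5 at -0.53. Of the 17 genes of the calcium, Ras and PKC branches, 2 fell against medium, beside 6.11% of all genes. There 10 of the 17 were higher and 7 lower, whereas 12 were lower against control ODN. Control ODN was itself above medium for 13 of the 17.

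**Figure D2:**
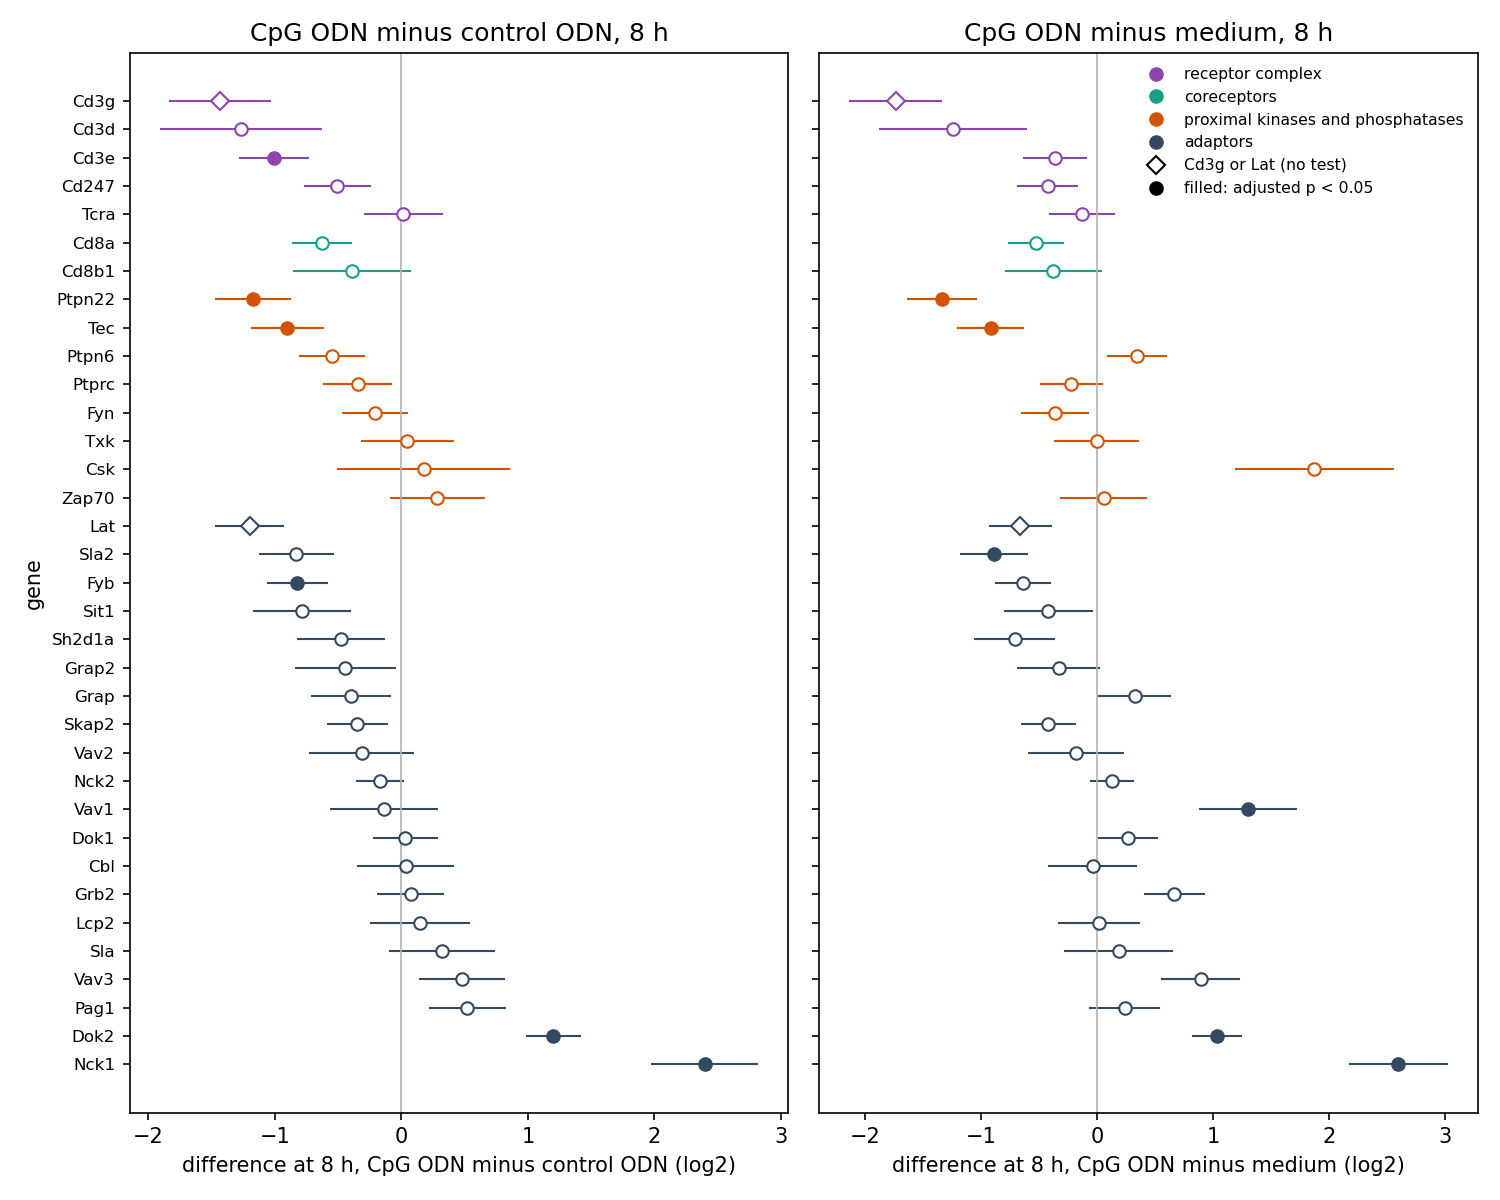
Difference at 8 h of CpG ODN minus control ODN (left) and minus medium (right) in log2 units, with bars of 1 SE, for the receptor complex, coreceptor, proximal enzyme and adaptor genes. Filled circles passed at an adjusted p below 0.05, open ones did not, and the diamonds are Cd3g and Lat, which were not tested. Cd3g lies at -1.43 and Lat at -1.20 on the left, Nck1 lies at 2.40, and Cd3e passed only on the left.

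At the earlier times no gene of the list passed against either control. Against control ODN, 0 of 67 genes tested passed at 2 h and 0 of 71 at 4 h by limma, with 2 at an unadjusted p under 0.05 at each time. Over all genes 0.043% passed at 2 h and 0.384% at 4 h. Against medium, 0 of 71 passed at either time by limma, beside 0.042% of all genes at 2 h and 0.218% at 4 h. There 5 genes (7.04%, all genes 5.52%) at 2 h and 10 (14.1%, all genes 4.84%) at 4 h had an unadjusted p under 0.05. The list's genes were lower than medium in 47 of 71 at 2 h and 43 of 71 at 4 h, and control ODN was itself lower than medium in 50 of 71 at 4 h. The test of the change itself, the 8 h difference from control ODN minus the 2 h difference, called 3 of 67 list genes higher and 1 lower, beside 2.13% and 1.13% of all genes. The same quantity was -0.91 ± 0.51 (SE) for Cd3g and -1.07 ± 0.36 (SE) for Lat.

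The label of a T cell gene was checked against markers of T and other cells. In a bulk culture, fewer cells of a type and less RNA per cell cannot be told apart. Of 22 T cell markers, of which 15 are also in the TCR signalling list, 2 (Cd3e and Cd5) fell and 0 rose against control ODN at 8 h, 16 were lower and the median was -0.42. Of 20 B cell markers, 5 fell (Fcrla by 2.18 ± 0.38 and Cd79b by 1.87 ± 0.29, SE), and the median was -0.60. In that list 15 genes were lower and 5 higher. Over all genes in this comparison 5.45% fell and the median was -0.12. The share of lower genes was 61.3% over all genes, 72.7% of the T cell markers and 75% of the B cell markers. Against medium at 8 h, 1 of 22 T cell markers fell, neither Cd3e nor Cd5, and 19 (86.4%) were lower, with a median of -0.37. Of 20 B cell markers, 3 fell against medium and 13 (65%) were lower, with a median of -0.35. Over all genes 6.11% fell against medium, 61.6% were lower and the median was -0.13. The lists of NK cell and mast cell markers had no call (limma), with 1 and 0 genes at an unadjusted p under 0.05. On each array, the median of the 8 T cell markers measured on all arrays was 1.15 ± 0.15 (SD) with CpG ODN at 8 h (1.06 to 1.32), 1.65 ± 0.50 (SD) with control ODN (1.33 to 2.23) and 1.50 ± 0.57 (SD) in medium (0.91 to 2.05). That of 11 B cell markers was 2.50 ± 0.34 (SD) with CpG ODN (2.15 to 2.83), 3.11 ± 0.28 (SD) with control ODN (2.79 to 3.33) and 3.29 ± 0.58 (SD) in medium (2.64 to 3.73). Both marker medians were thus lower on average in the group in which Cd3g and Lat were lower. A log ratio of 0 marks equal signal in spleen cells and reference, so absence of a marker cannot be read from it. The part of the marker medians in the Cd3g and Lat differences was not tested. After subtraction of the T cell median array by array, Cd3g was -0.21 ± 0.36 (SD, n = 2) with CpG ODN and 0.76 ± 0.60 (SD, n = 3) with control ODN, and Lat was -1.27 ± 0.22 (SD, n = 3) and -0.56 ± 0.37 (SD, n = 3). In medium the values were 1.22 ± 1.00 (SD, n = 3) for Cd3g and -0.95 ± 0.18 (SD, n = 3) for Lat, whose range of -1.13 to -0.77 overlaps that with CpG ODN, -1.45 to -1.02.

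Within the groups, the deviations of Cd3g went with those of B cell markers. Each array's deviation from its group mean was set against that of the marker medians or of another gene. The 18 relations were chosen after the values had been seen and use the ratios by which the members were selected, so the correlations are descriptions with no test. Cd3g and the B cell median gave a Pearson r of 0.68 and a Spearman rho of 0.67 over 32 arrays, and r was 0.53 without the 2 arrays farthest from the median. Against the T cell median the same arrays gave r = -0.15 and rho = -0.21. On medium 8 h replicate 2, Cd3g and the T cell median lie at opposite ends: the Cd3g value of 3.24 is the highest of its group and the T cell median of 0.91 the lowest. Without that array the r values were 0.67 against the B cell median and -0.0016 against the T cell median.

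For Lat the larger value was with the T cell median, at r = 0.59 and rho = 0.58, and r was 0.42 without the 2 farthest arrays. Against the B cell median Lat gave r = -0.30 and rho = -0.24. Cd3g and Lat themselves gave r = -0.21 and rho = -0.27 over 31 arrays, although both were low with CpG ODN at 8 h.

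Cd3d, the nearest neighbour of Cd3g, gave r = 0.65 and rho = 0.60 against the B cell median, with r = 0.52 without the 2 farthest arrays, and r = 0.045 and rho = 0.064 against the T cell median. Cd3g and Cd3d gave r = 0.50 and rho = 0.58 over 31 arrays. Cd3g and Cd3e, the other CD3 gene nearby, gave lower values of r = 0.13 and rho = 0.23, whereas Lat and Cd3e gave r = 0.57 and rho = 0.50. For Cd3g and Cd3d, r was 0.72 without medium 2 h replicate 4 and medium 8 h replicate 1. Without medium 8 h replicates 2 and 3, r was 0.29 for Cd3g and Cd3e and 0.43 for Lat and Cd3e. Cd3e, Cd247, Cd8a and Cd5 gave r from -0.34 to 0.39 against the B cell median and from 0.061 to 0.33 against the T cell median. Arrays with the same repeat number may share an experiment, and each array's values share 1 hybridization.

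**Figure D3:**
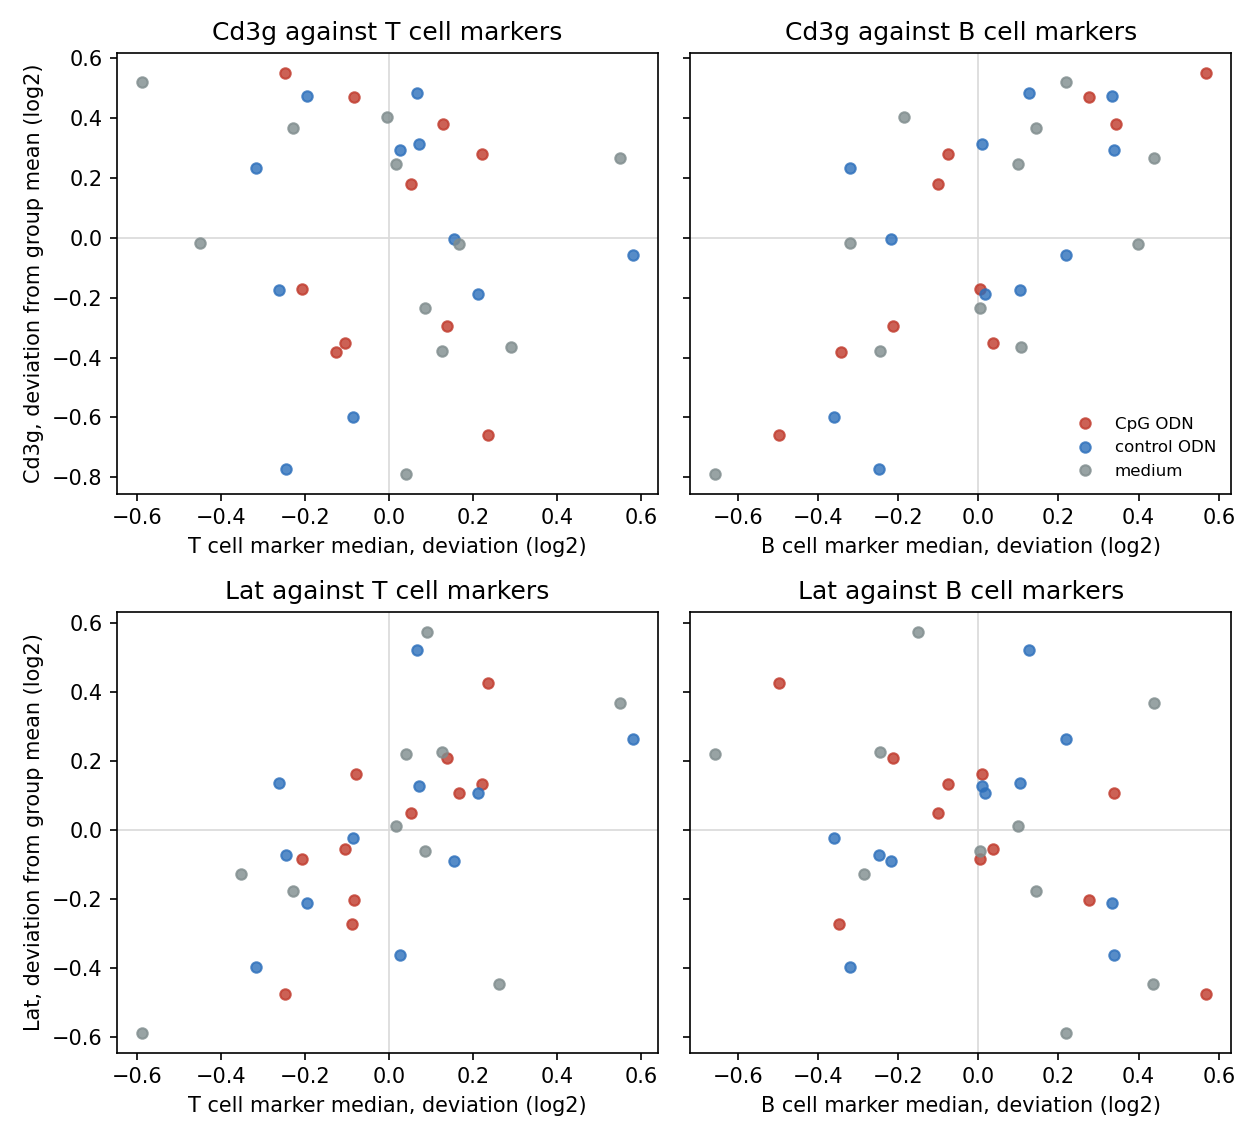
Deviation of each array from its group mean in log2 units, for Cd3g (top) and Lat (bottom) on the vertical axis, against the deviation of the T cell marker median (left) or the B cell marker median (right), with 1 point per array coloured by treatment. Cd3g goes with the B cell median (r = 0.68, against -0.15 with the T cell median), and Lat gives r = 0.59 with the T cell and -0.30 with the B cell median.

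The genes with the profile most like each member were ranked by the root mean square difference of the 9 group means, each centred on its own mean, over the 8945 genes with at least 2 measured arrays in every group. For Cd3g the nearest were Ptpn18 (0.13), Sipa1 (0.14), Gngt2 (0.16), Pold4 (0.16), Farsb (0.18) and Retreg1 (0.18), whose SDs over the 9 means lay between 0.36 and 0.55. For Lat they were Ccdc112 (0.097), Nbl1 (0.11), Cers5 (0.12), Cnn2 (0.12), Abhd12 (0.13) and Cep250 (0.13). At 8 h against control ODN these 12 genes differed by between -1.50 (Pold4) and -0.78 (Cers5). Lat stood at rank 218 among the profiles nearest to Cd3g and Cd3g at rank 2516 among those nearest to Lat, both at 0.30, so neither member is among the closest to the other.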

How the data were processed

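RNA from cultured spleen cells was measured on 33 two-colour arrays. The values deposited by the authors are log ratios of each probe, Cy5 over Cy3 per the labels, read here as log2. Their log base, background correction, spot filter and normalization were not given in the sources used. No dye was swapped. Groups were taken from the sample labels. Each array's median was subtracted, a gene was represented by its probe with the fewest missing values, and 9 group means were fitted to all genes with the linear model and moderated variances of limma 3.58.1 (R 4.3.3), followed by Benjamini-Hochberg adjustment. A gene was tested with at least 2 measured arrays in each compared group and called at an adjusted p below 0.05. The fit was checked on simulated data. Deviations and motifs were computed with Python 3.11.15, numpy 2.4.6 and scipy 1.17.1. Markers of 9 cell types were listed, of which platelet, monocyte, dendritic, neutrophil and erythroid results stand under other observations.

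Both members and all lists were chosen with earlier results of these data known. Named genes were both members, measured genes of the receptor, coreceptor, proximal enzyme and adaptor roles, the called genes with the largest 8 h difference from control ODN in other roles and lists (up to 4 per direction), and the 6 nearest profiles. Sequences and positions are those of RefSeq on GRCm38.p6. Alternatives were other normalizations, blocks, weights, probe rules and left-out arrays. Whether repeat numbers mark pairs was left undecided, and the main fit did not use them. Of 33 pairs of same-numbered arrays of 1 time, 21 correlated above 0.1, over a range from -0.41 to 0.74. The own number gave the best match in 18 of 33.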

Additional observations from a re-analysis of the deposited data

Results flagged for a closer look

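For 4 genes of the TCR signalling list, the difference of CpG ODN from control ODN itself differed between 8 h and 2 h by the limma test of that change. The change was 2.86 ± 0.58 (SE, adjusted p = 0.0034) for Nck1, 2.08 ± 0.32 (SE, adjusted p = 7.19e-05) for Jun and 1.47 ± 0.29 (SE, adjusted p = 0.0016) for Dok2. It was -1.40 ± 0.39 (SE, adjusted p = 0.037) for Inpp5d. Cd3g and Lat were not tested.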

How the results depend on the processing

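In the 14 alternatives run for each member, the 8 h differences of Cd3g and Lat stayed below 0. Several of these could not move the estimate. For both members these were the compared groups only, the removal of 4 arrays of the 2 h and 4 h groups, and the mean of all probes. Leaving out CpG ODN replicate 1 could not move Cd3g, which has no value there, and neither replicate block moved Lat. Without 1 array at a time, Cd3g lay between -1.81 and -1.05 against control ODN and between -2.13 and -1.36 against medium, and Lat between -1.40 and -1.06 and between -0.96 and -0.48. Leaving out 1 of its 2 CpG ODN arrays rests the Cd3g value on a lone array, assumed to vary like other groups. Restricting the table to genes measured on all 33 arrays gave neither member a value, since each misses 1. The quantile setting called 6 list genes against control ODN, 6 against medium and 626 of all genes against control ODN (13, 10 and 949 otherwise). Fitting only the compared groups, with fewer arrays, called 564 of all genes against control ODN, 315 of all genes against medium (1115 otherwise) and 4 list genes against medium. With 1 array left out, calls ranged from 6 to 12 list genes and from 557 to 887 genes against control ODN, and from 6 to 14 list genes and from 690 to 1415 genes against medium. The lowest counts came without CpG ODN replicate 2, and 6 list genes also without medium replicate 2 (711 of all genes). All genes called against control ODN were 627 without control ODN replicate 2 and 625 without CpG ODN replicate 3. With the replicate block within each time, 1489 genes were called against control ODN and 1698 against medium, the Cd3g difference from control ODN was -1.67 and that of Lat -1.20. In 18 of 33 checks of same-numbered arrays, the best correlation was with the array of the same number, a hint from the data and not from the design. The cause of these shifts, and of the lost calls of Cd3e, Cd5, Ptpn22 and Tec given above, was not tested. Genes that fell against medium numbered 2 with quantile normalization and with the compared groups only, and 3 without CpG ODN replicate 2 or medium replicate 2 (6 otherwise), and those against control ODN 5 without control ODN replicate 3 (9 otherwise).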

Other observations

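Other marker lists held calls in both directions at 8 h against control ODN (limma, adjusted over all genes tested). Over all genes in this comparison, 5.45% fell, 4.55% rose and 61.3% were lower. Of 12 monocyte and macrophage markers, 1 rose (Fcgr1, an Fc receptor, by 0.99 ± 0.30, SE) and 2 fell (Cd14 by 1.53 ± 0.30 and Vcam1 by 1.01 ± 0.24, SE), and 11 were lower. Of 6 dendritic cell markers, Irf8, a transcription factor of that lineage, rose by 1.27 ± 0.35 (SE), and 3 were lower. Of 8 platelet and megakaryocyte markers, Itgb3 rose by 0.69 ± 0.19 (SE) and Gp9 fell by 0.75 ± 0.23 (SE), and 5 were lower. Of 10 erythroid markers, Epb42 fell by 0.99 ± 0.26 (SE), and 8 were lower. Of 11 neutrophil and precursor markers none passed (limma), with 1 at an unadjusted p under 0.05, while 10 were lower with a median of -0.59. Against medium at 8 h, 7 of 13 monocyte and macrophage, 2 of 6 dendritic and 6 of 8 platelet markers were lower. So were 4 of 10 erythroid and 11 of 11 neutrophil markers, beside 61.6% of all genes. Calls against medium were 1 rise and 2 falls for monocyte and macrophage, 1 rise for dendritic and none for platelet markers. The erythroid and neutrophil lists had 1 fall each, beside 6.11% of all genes.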
